A study of Sus scrofa with 4 samples.

Results

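The genes described here are those for cytokines and chemokines that keratinocytes, the epithelial cells of skin, are known to make: the chemokines CXCL14, CXCL12, CCL27 and CCL20, the interleukins IL1A, IL18 and IL34, the receptor antagonist IL1RN, and TSLP and TNF. They were chosen by name, with earlier results of these data known, and 9 of the 10 names were read from a table of 29837 named genes; IL1RN was not analysed here. RNA sequencing was done on epidermal cells of 2 juvenile pigs, labelled 88R and 95R, and each pig gave a library of LGR5-high cells and a library of LGR5-negative cells. In both populations the cells carried H2B-GFP, a nuclear fluorescent histone, inserted into exon 1 of a single LGR5 allele, so that the LGR5 promoter drives it. The line was made by CRISPR/Cas9 editing of fetal fibroblasts and somatic cell nuclear transfer from edited colonies. Skin was treated with Dispase II, hair and epidermis were pulled from the dermis and dissociated with trypsin, and live cells were sorted by GFP, so the 2 populations differ in reporter signal and share the genotype. Hair follicle and interfollicular epidermis were in the same suspension.

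Keratinocytes are both a barrier and a source of immune signals. Chemokines such as CCL27 and CCL20 draw skin-homing lymphocytes and dendritic cell precursors, IL1A and IL18 act as early alarm signals that need release or cleavage, IL34 keeps Langerhans cells alive, TSLP acts on dendritic cells and type 2 immunity, and TNF drives inflammatory gene expression through NF-kB. CXCL14 is a chemokine made constitutively by epithelia, and CXCL12 is best known as a stromal signal that holds CXCR4-bearing cells in place.

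The libraries held 30696803 to 32463362 counts, so that 3 counts corresponded to 0.0873 to 0.105 counts per 1000000 counts (CPM, scaled by the trimmed mean of M values). Paired values are given with pig 88R first and pig 95R second. Counts of LGR5 itself were 4551 and 6224 in LGR5-high and 36 and 109 in LGR5-negative libraries (log2 fold change 6.03), as the labels give it. Keratinocyte markers were abundant in every library, with a summed level of 36999 to 46690 CPM. Of the 9 tested, EPCAM was higher in LGR5-high cells and PERP and SFN were lower by edgeR's quasi-likelihood test, the EPCAM call being lost without the LGR5-high library of pig 88R (adjusted p = 0.0848). Suprabasal epidermis markers summed to 6674 and 6084 CPM in LGR5-high cells and to 66635 and 57530 CPM in LGR5-negative cells. Of 9 tested, 7 were lower in LGR5-high cells, KRT1 and KRT10 among them, and LOR and IVL were not called. Over all fits run, the log2 fold change ranged from -0.36 to 0.60 for LOR and from -0.64 to 0.54 for IVL. In bulk libraries such as these, fewer cells of a type and less RNA per cell cannot be told apart.

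CXCL14 and CXCL12 were higher in LGR5-high cells, and so was TNF. CCL27, CCL20 and IL34 were lower. IL1A, TSLP and IL18 did not pass the test. All 9 genes passed the filter on low counts, and 6 were called at an adjusted p under 0.05 by the quasi-likelihood test of edgeR, adjusted by the Benjamini-Hochberg method over the 15980 genes tested, 3 in each direction. Across all tested genes, 22.7% were called higher and 22.0% lower in LGR5-high cells, so calls are common in this comparison. The share of calls that were higher was 50.9%, and 70.2% when libraries were scaled by their size only, under which the 6 calls were the same. Both LGR5-high values lay above both LGR5-negative values in 3 of the 9 genes and below them in 5, against 39.2% and 37.4% of all tested genes. Fold changes below are LGR5-high over LGR5-negative on the log2 scale with their standard error (SE). The SE is the absolute log2 fold change divided by the square root of the test's F statistic. With 2 pigs per population the p-values rest on the spread between those libraries, moderated by that of all tested genes. The same 2 pigs gave both populations, and the fit had no term for the pig.

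**Figure D1:**
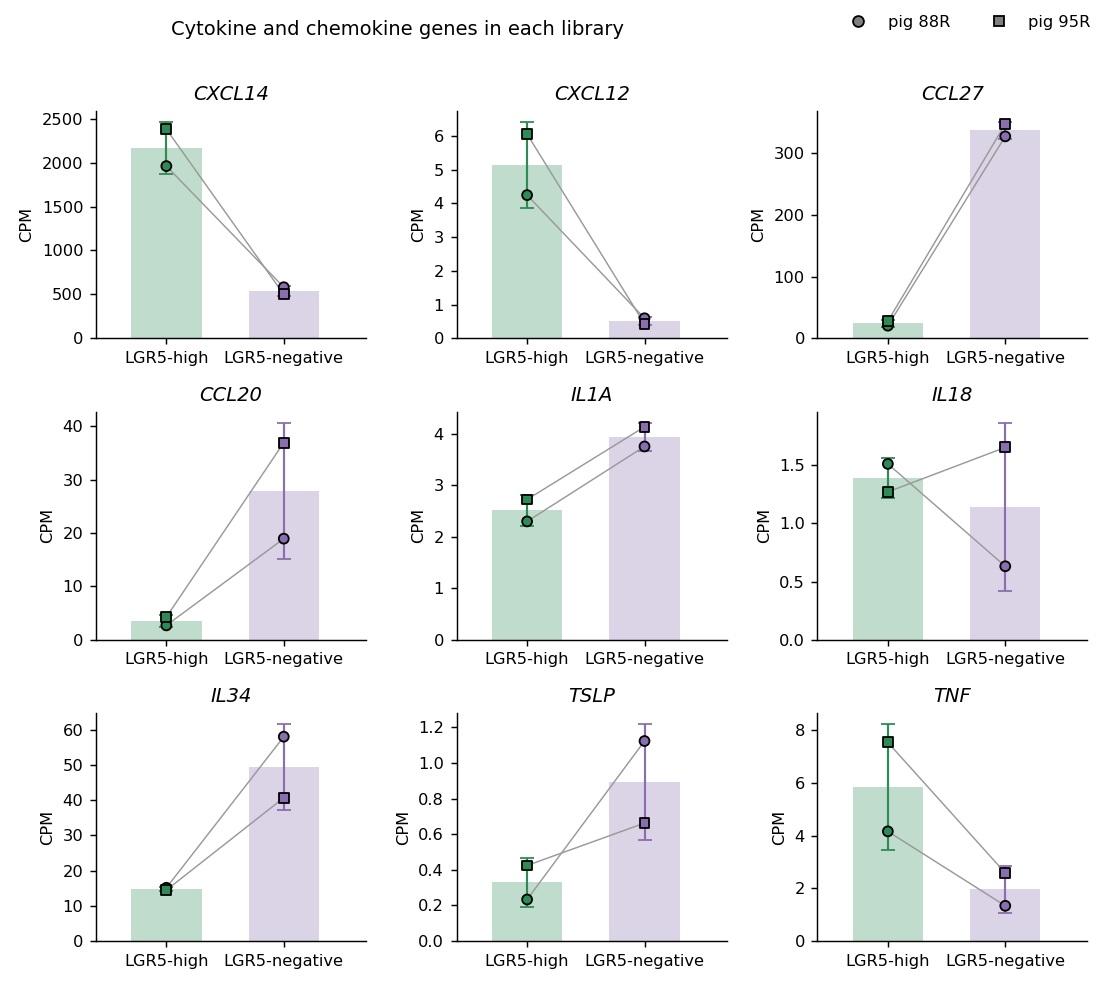
Expression of the 9 genes in CPM (linear axes starting at 0, a separate scale for each gene). Bars are means and error bars SD of 2 libraries, points are libraries (circles pig 88R, squares pig 95R), and lines join the libraries of a pig; the points of the populations overlap in height for IL18 and for no other gene.

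CXCL14 had the largest counts of the set. It reached 1960.0 CPM in the LGR5-high library of pig 88R and 2380.1 CPM in that of pig 95R, against 582 and 500.5 CPM in their LGR5-negative libraries. The populations were well apart in both pigs, and the LGR5-negative libraries still held 16595 and 15124 counts of it. The means were 2170.0 ± 297 CPM and 541 ± 57.9 CPM (SD, n = 2), a 4.01-fold higher level in LGR5-high cells (log2 fold change 2.0, SE 0.14, adjusted p = 0.00025, edgeR). The log2 fold changes within pigs were 1.75 and 2.25.

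CXCL12, the ligand of CXCR4 and ACKR3, was found at a low level. Counts were 146 and 200 in the LGR5-high libraries and 17 and 13 in the LGR5-negative libraries, or 4.25 and 6.05 CPM against 0.597 and 0.430 CPM. LGR5-high cells were the higher population in each pig, and the LGR5-negative counts were small. The difference was 10.0-fold between the means (log2 fold change 3.32, SE 0.34, adjusted p = 0.00097, edgeR). Counting error alone gave a 95% interval of 4.30 to 12.6 for the fold within pig 88R and of 8.04 to 26.9 within pig 95R. Fibroblast markers, which include other stromal genes, summed to 1255 and 1500 CPM in LGR5-high cells and to 679 and 373 CPM in LGR5-negative cells. Their members split, since 4 of 9 tested were higher in LGR5-high cells (COL1A1, COL1A2, FBLN1 and THY1) and 4 were lower (COL3A1, DCN, LUM and PDGFRA). LUM had 5 and 0 counts in LGR5-high cells, and PDGFRA 4 and 3. COL1A1 lost its call without either library of pig 95R (adjusted p = 0.174 without LGR5-high and 0.0606 without LGR5-negative), and THY1 and PDGFRA without either LGR5-high library (adjusted p of 0.0876 to 0.096 and of 0.0526 to 0.0671). Dermal papilla markers summed to 12.1 and 9.05 CPM in LGR5-high and 4.77 and 4.73 CPM in LGR5-negative cells, and of the 3 tested HEY1 was higher and none lower. SOX2 had 3 and 5 counts against 0 and 0, RSPO3 1 and 1 against 6 and 13, FGF10 0 and 0 against 3 and 5, and FGF7 and PROM1 no more than 4 in any library. The part of these cells in the CXCL12 level was not tested.

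CCL27, an epidermal chemokine whose receptor CCR10 marks skin-homing T cells, was the most strongly lowered gene of the set. It stood at 20.6 and 28.0 CPM in the LGR5-high libraries and at 327 and 347 CPM in the LGR5-negative libraries. The LGR5-negative library was above the LGR5-high library of the same pig 15.9-fold in pig 88R and 12.4-fold in pig 95R, and the libraries of a population were close. The means were 24.3 ± 5.24 and 337 ± 14.1 CPM (SD, n = 2), which is 13.9-fold lower in LGR5-high cells (log2 fold change -3.80, SE 0.16, adjusted p = 7.67e-05, edgeR). Counting intervals were narrow, and the level in LGR5-high cells was 0.0581 to 0.0678 of that in LGR5-negative cells in pig 88R and 0.0752 to 0.0861 in pig 95R.

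CXCL14 and CCL27 differed in opposite directions between the populations, and the ratio of their counts within a library needs no scaling. There were 95.3 and 85.1 counts of CXCL14 per count of CCL27 in the LGR5-high libraries. In the LGR5-negative libraries there were 1.78 and 1.44. The ratio thus differed 53.6-fold between populations in pig 88R and 59.1-fold in pig 95R. As counts are not per length, the ratio compares populations and says nothing of which gene had more transcripts.

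CCL20, the ligand of CCR6 and an attractant of Langerhans cell precursors and Th17 cells, was also lower. Its level was 2.68 and 4.24 CPM in LGR5-high cells and 18.9 and 37.0 CPM in LGR5-negative cells. The LGR5-negative libraries differed more between pigs than the LGR5-high ones, and both lay above both of them. The mean was 8.09-fold lower in LGR5-high cells (3.46 ± 1.10 against 28.0 ± 12.7 CPM, SD, n = 2; log2 fold change -3.02, SE 0.39, adjusted p = 0.00218, edgeR). Without the LGR5-negative library of pig 95R the log2 fold change was -2.46, and without that of pig 88R it was -3.43. The values within pigs were -2.79 and -3.11.

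IL34, which signals through the same receptor as CSF1, stood at 15.1 and 14.4 CPM in LGR5-high cells and at 58.0 and 40.7 CPM in LGR5-negative cells. The LGR5-high libraries were nearly alike, and the LGR5-negative libraries were both higher but further apart. IL34 was 3.34-fold lower in LGR5-high cells (log2 fold change -1.74, SE 0.19, adjusted p = 0.0011, edgeR). In the Sscrofa11.1 annotation IL34 overlaps MTSS1L, which was itself lower (log2 fold change -1.23, adjusted p = 0.00159, edgeR), and a pseudogene with a single count in all libraries together. Whether counting used strand is not stated, so reads in the overlap cannot be assigned to either gene with certainty.

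Markers of other cells moved beside these 3 lower genes. In addition to the suprabasal markers above, the summed Langerhans and myeloid markers stood at 30.6 and 26.2 CPM in LGR5-high cells and at 206 and 195 CPM in LGR5-negative cells. Of 14 tested, 11 were lower in LGR5-high cells, and AIF1 was higher. The shares over all tested genes, for this and the other marker lists above and below, were 22.7% higher and 22.0% lower. CD207, the langerin gene that defines Langerhans cells, had 9 and 7 counts in LGR5-high and 74 and 172 in LGR5-negative libraries. Melanocyte markers summed to 62.5 and 62.6 CPM in LGR5-high cells and to 85.0 and 261 CPM in LGR5-negative cells, with 5 of 7 lower. Endothelial markers summed to 10.4 and 13.1 CPM against 23.3 and 24.5 CPM (5 of 7 lower, 1 higher), and mast cell markers to 1.88 to 2.36 CPM against 3.23 to 4.30 CPM (2 of 3 lower). Only 2 of the 6 endothelial calls, 1 of the 5 melanocyte calls, 1 of the 2 mast cell calls and 9 of the 12 Langerhans and myeloid calls were held with every library left out in turn. Without the LGR5-high library of pig 95R, 8 Langerhans and myeloid, 3 endothelial and 2 melanocyte markers were called lower, and without that of pig 88R 9, 3 and 2 were. Among the scarcest were CDH5, with 1 and 1 counts in LGR5-high and 17 and 21 in LGR5-negative libraries, LYVE1, with 0 and 0 against 2 and 7, and CPA3 and HDC, with no more than 2 in any library. Their part in the levels of CCL27, CCL20 and IL34 was not tested.

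TNF, an early cytokine of inflammation, was higher in LGR5-high cells. Its counts were 143 and 249 in LGR5-high and 38 and 78 in LGR5-negative libraries, or 4.16 and 7.54 CPM against 1.33 and 2.58 CPM. Pig 95R had more TNF than pig 88R in both populations, and within each pig the LGR5-high library was higher. The fold between means was 2.99 (log2 fold change 1.57, SE 0.43, adjusted p = 0.0303, edgeR), and the log2 fold changes within pigs were 1.60 and 1.52. This call was lost without the LGR5-negative library of pig 88R (log2 fold change 1.17, adjusted p = 0.07) and without the LGR5-high library of pig 95R (1.09, adjusted p = 0.158). T cell markers were near 0, with CD3D, CD3E and CD2 at no more than 3 counts in each library and CD28 at 0 in all. CD4 and CD8A had 1 to 5 counts, CD3G 0 and 0 against 1 and 4, and LCK 10 and 4 against 0 and 1. Of the 10 markers only CD247 was tested, and it was higher in LGR5-high cells. The list summed to 11.3 and 11.8 CPM in LGR5-high and 4.42 and 4.10 CPM in LGR5-negative cells, nearly all of it CD247 (10.8 and 11.1 against 4.11 and 3.44 CPM). The part of T cells or myeloid cells in the TNF level was not tested.

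IL1A, an alarm cytokine stored in keratinocytes, stood at 2.30 and 2.72 CPM in LGR5-high cells and at 3.75 and 4.14 CPM in LGR5-negative cells. The 2 populations did not overlap, but the difference was small. Its log2 fold change was -0.65 (SE 0.24, adjusted p = 0.0699, edgeR), which misses the threshold. IL1A was called lower once that test held the pig as a replicate block (adjusted p = 0.032, edgeR). Over all 15980 tested genes the block raised the edgeR calls from 3632 higher and 3508 lower to 4562 and 4342. The block leaves few degrees of freedom per gene, so its p-values rest mostly on the spread of all tested genes.

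TSLP was close to the limit of detection, with 8 and 14 counts in LGR5-high and 32 and 20 in LGR5-negative libraries. Both LGR5-negative values were above both LGR5-high values, by a wide margin in pig 88R and a narrow one in pig 95R. The log2 fold change was -1.43 (SE 0.50, adjusted p = 0.0636, edgeR), and with the pig as a replicate block TSLP was called lower (adjusted p = 0.0252). Within pig 95R counting error allowed a fold of 0.299 to 1.33 of LGR5-high over LGR5-negative, and within pig 88R one of 0.0825 to 0.459. TSLP overlaps WDR36 in the annotation, which had 1122 to 1371 counts per library, and reads in the overlap cannot be told apart. WDR36 was itself called lower (log2 fold change -0.33, adjusted p = 0.0416, edgeR), a call not kept with every library left out in turn.

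IL18, which needs cleavage by caspase-1 to signal, showed no common direction. Counts were 52 and 42 in LGR5-high libraries and 18 and 50 in LGR5-negative libraries. The LGR5-negative library of pig 88R was the lowest of the 4 and that of pig 95R among the highest, so the populations overlapped. Within pig 88R the LGR5-high level was 2.39-fold the LGR5-negative level (95% counting interval 1.38 to 4.35), and within pig 95R it was 0.768 of it (0.497 to 1.18). The log2 fold change was 0.28 (SE 0.49, adjusted p = 0.673, edgeR), and it was -0.25 without the LGR5-negative library of pig 88R and 1.13 without that of pig 95R.

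**Figure D2:**
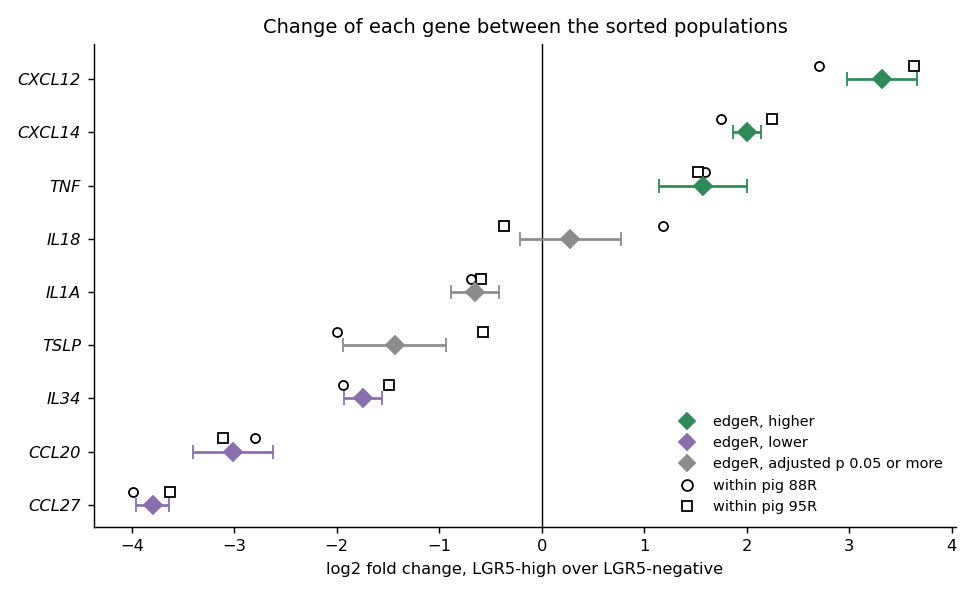
Log2 fold change of each gene, LGR5-high over LGR5-negative. Diamonds are edgeR estimates with SE bars, coloured by call, and open symbols are the values within each pig; the pigs fall on the same side of 0 for 8 genes and on opposite sides for IL18.

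The receptors of these ligands were read from the same fit. For them and for the lists that follow, the shares over all tested genes were 22.7% higher and 22.0% lower. Of 16 receptor genes, 12 were tested, 3 were higher in LGR5-high cells and 6 lower, with a median log2 fold change of -0.98 against 0.02 over all tested genes (-1.58 when every receptor with a count was tested). CXCR4, the signalling receptor of CXCL12, had 524 and 565 counts in LGR5-high libraries against 25 and 37 in LGR5-negative libraries. It was 15.4-fold higher (log2 fold change 3.94, SE 0.23, adjusted p = 0.00016, edgeR), the same direction as its ligand. ACKR3, the other CXCL12 receptor, which removes the ligand, ran the opposite way at 14.5 and 16.2 CPM against 65.9 and 38.8 CPM (log2 fold change -1.77, SE 0.26, adjusted p = 0.00335, edgeR). IL18R1, the ligand-binding chain for IL18, had 112 and 117 counts in LGR5-high and 1 and 5 in LGR5-negative libraries (log2 fold change 5.01, SE 0.53, adjusted p = 0.00106, edgeR). The value for IL18R1 rests on those few LGR5-negative counts, and it was 4.32 without the LGR5-negative library of pig 88R and 6.44 without that of pig 95R. Its partner IL18RAP, needed for the signal, had 0 counts in all 4 libraries, which allows up to 0.0873 to 0.105 CPM.

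For IL1A, the signalling receptor IL1R1 did not pass the test, at 35.2 and 33.2 CPM in LGR5-high and 37.6 and 36.1 CPM in LGR5-negative cells (log2 fold change -0.11, SE 0.10, adjusted p = 0.397, edgeR). The sign of that small value turned to 0.12 when libraries were scaled by size only. The decoy receptor IL1R2, which binds IL1 without signalling, was 4.99-fold lower in LGR5-high cells (72.5 and 50.1 against 360.1 and 252 CPM; log2 fold change -2.32, SE 0.24, adjusted p = 9.94e-04, edgeR). IL1RAP, the accessory chain both use, was 6.44-fold lower (20.1 and 19.9 against 119 and 138 CPM; log2 fold change -2.69, SE 0.11, adjusted p = 6.65e-05, edgeR).

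CSF1R, the receptor of IL34 on Langerhans cells, had 39 and 32 counts in LGR5-high and 394 and 501 in LGR5-negative libraries (log2 fold change -3.85, SE 0.21, adjusted p = 0.000141, edgeR). It is also among the Langerhans and myeloid markers given above. PTPRZ1, another IL34 receptor, was 3.33-fold lower, and SDC1, a proteoglycan that binds IL34, was 1.35-fold higher (log2 fold changes -1.74 and 0.43). SDC1 lost its call without either LGR5-high library (adjusted p = 0.0611 and 0.0603, edgeR). TNFRSF1A, the main TNF receptor of epithelia, was at 64.1 and 66.6 CPM in LGR5-high cells and at 174 and 172 CPM in LGR5-negative cells (log2 fold change -1.41, SE 0.08, adjusted p = 0.00013, edgeR), opposite to TNF itself. TNFRSF1B had a log2 fold change of -0.55 (adjusted p = 0.0875, edgeR).

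CCR6, CRLF2 and IL7R, receptors known from immune cells, were scarcely detected. CCR6, for CCL20, had 1 and 0 counts in LGR5-high and 4 and 5 in LGR5-negative libraries. The TSLP receptor chain CRLF2 had 0 counts in all 4 libraries, and its partner IL7R had 1 count in all. CCR10, for CCL27, was measured at 3.08 and 3.66 CPM in LGR5-high and 2.56 and 3.01 CPM in LGR5-negative cells, with no call (log2 fold change 0.27, SE 0.24, adjusted p = 0.4, edgeR).

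**Figure D3:**
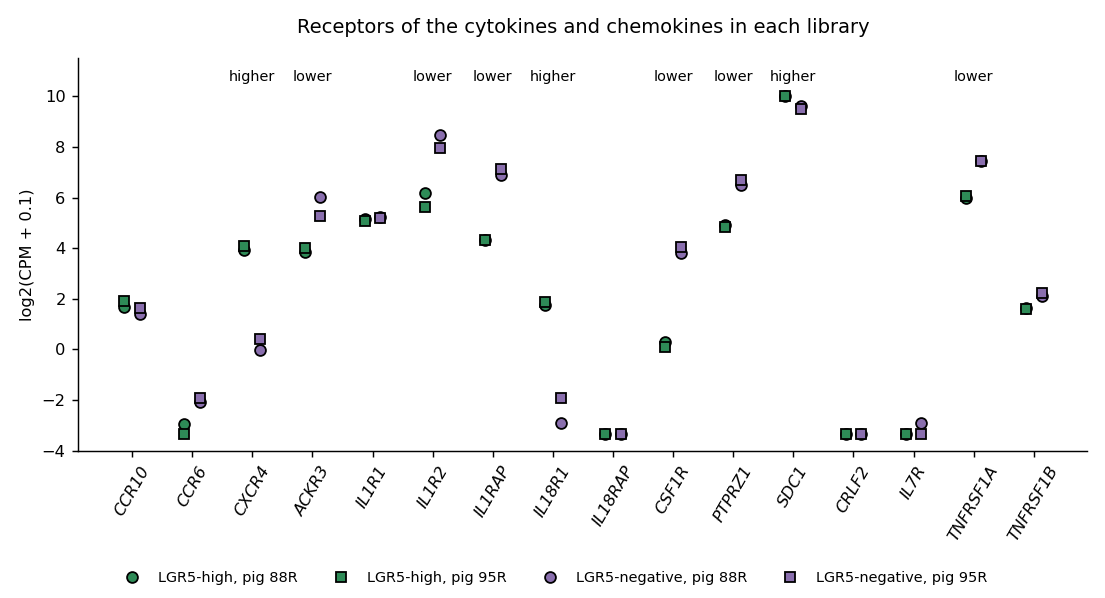
Level of the 16 receptor genes in each library as log2(CPM + 0.1), with circles for pig 88R and squares for pig 95R and the edgeR call above each tested gene that was called. CXCR4 and IL18R1 lie higher in LGR5-high cells, IL1R2, IL1RAP, CSF1R and TNFRSF1A lie lower, and IL18RAP, CRLF2 and IL7R lie at the bottom of the axis with 0 or 1 counts.

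Genes that release, cleave or block these cytokines were divided. Of 18 listed, 14 were analysed and 13 tested, with 4 higher, 4 lower and a median log2 fold change of 0.10 (0.01 to 0.18 with a library left out, and 0.32 with libraries scaled by size only). The higher genes were TIMP3, an inhibitor of the TNF-shedding protease ADAM17 (777 and 670 against 146 and 129 CPM; log2 fold change 2.39), GSDMD, the pore through which IL1 family cytokines leave the cell (2.06), CAPN2, a calpain of the family that cleaves pro-IL1A (0.63), and MALT1 (0.38). The lower genes were CASP1, which matures IL18 (5 and 4 against 19 and 29 counts; -2.57), the elastase ELANE (-1.62), CASP8 (-1.32) and ADAM17 itself (-0.55). NLRP3, a sensor that activates caspase-1, had 2 and 2 counts in LGR5-high and 7 and 23 in LGR5-negative libraries and was not tested. IL18BP, the soluble inhibitor of IL18, did not differ past the threshold (43.7 and 49.6 against 43.0 and 44.1 CPM; log2 fold change 0.10, adjusted p = 0.468, edgeR). With each library left out in turn, 5 of the 8 calls were kept. CASP1 lost its call without either LGR5-high library (adjusted p = 0.0586 and 0.0735), MALT1 without any library but the LGR5-negative one of pig 95R (0.0539 to 0.0875), and ELANE without any of the 4 (0.103 to 0.233).

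In the IL1 family beyond IL1A and IL18, 10 of 16 names were analysed and 8 tested, with none higher and 4 lower: MYD88, the adaptor of IL1 and IL18 receptors (14.3 and 16.5 against 46.2 and 47.7 CPM; log2 fold change -1.61, SE 0.12, adjusted p = 0.000292, edgeR), the kinases IRAK4 (-0.57) and IRAK1 (-0.47), and the IL36 receptor IL1RL2 (-0.33). The small ones depend on the scaling, since 2 of the 4 were called with upper quartile scaling and 1 with library size only. IRAK4 lost its call with any library left out (adjusted p = 0.081 to 0.132) and IL1RL2 with any but the LGR5-negative one of pig 95R (0.113 to 0.17). IL1B was near 0, with 0 and 1 counts in LGR5-high and 3 and 6 in LGR5-negative libraries. IL1RL1, the IL33 receptor, had 6 and 8 counts against 1 and 2. IL33 overlapped between populations at 2.70 to 4.43 CPM.

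Targets and brakes of NF-kB, the factor that TNF and IL1 switch on, were more often called lower than higher in LGR5-high cells. Of those tested 5% were higher and 50% lower, against 22.7% and 22.0% of all tested genes. Of 22 listed genes, 21 were analysed and 20 tested, 1 was higher and 10 lower, and the median log2 fold change was -0.79 (-0.51 without the LGR5-negative library of pig 95R). PTGS2, the prostaglandin synthase COX-2, fell the most, from 557 and 687 CPM in LGR5-negative to 59.4 and 94.9 CPM in LGR5-high cells (log2 fold change -3.01, SE 0.25, adjusted p = 0.000437, edgeR). NFKBIZ, an inducible cofactor, stood at 366 and 454 CPM in LGR5-high and 1491 and 1644 CPM in LGR5-negative cells (-1.94), and BCL3 (-1.81) and the subunit REL (-1.74) were lower too. The adhesion gene VCAM1 was the one that rose (log2 fold change 1.81, adjusted p = 0.00775, edgeR), and its call was lost without the LGR5-high library of pig 95R (adjusted p = 0.052). In all, 8 of the 10 lower calls were kept with each library left out. The exceptions were NFKBIA, lost without the LGR5-high library of pig 88R (adjusted p = 0.0639), and SOD2, lost with any library left out (0.057 to 0.134). With the pig as a replicate block 12 were lower, the added ones being BIRC3, a brake on cell death (log2 fold change -1.14, adjusted p = 0.0835 without the block and 7.33e-07 with it, edgeR), and ICAM1, another adhesion gene (-0.88, 0.0618 and 0.0283). Both were lower within each pig. The block raised calls over all tested genes too, as given above with IL1A. TNIP3 had 2 or 3 counts in every library.

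**Figure D4:**
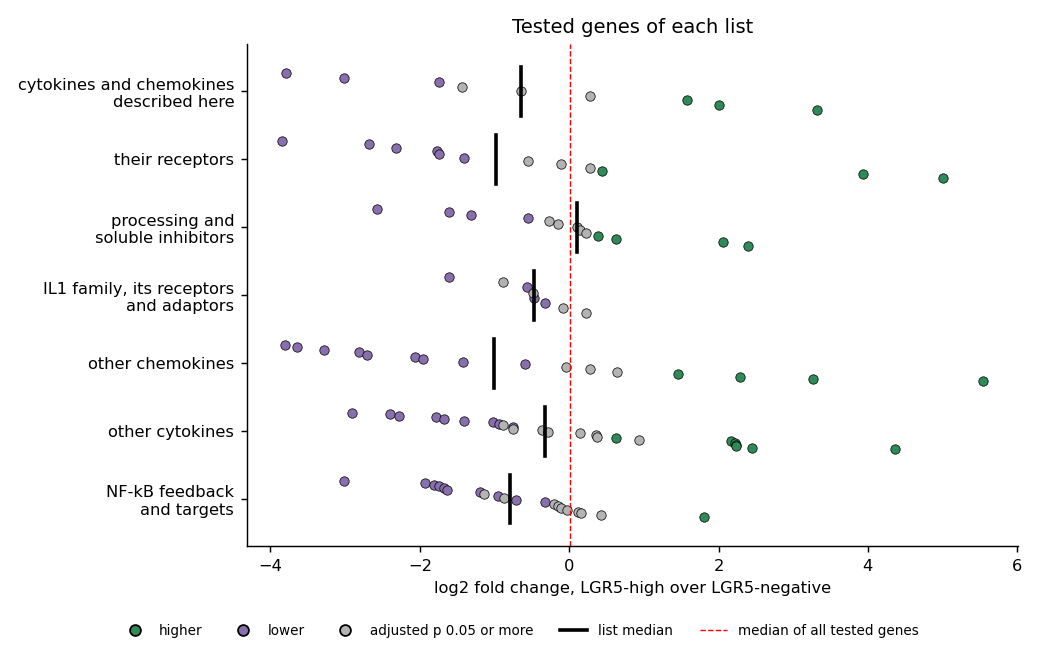
Log2 fold change, LGR5-high over LGR5-negative, of every tested gene in 7 lists (points, coloured by edgeR call), with the median of each list as a black bar and the median of all tested genes as a dashed line. The points of the 9 cytokine and chemokine genes spread from -3.80 to 3.32, and NF-kB genes have a single point called higher.

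Chemokines outside the set were also spread in both directions. Of 26, 25 were analysed and 16 tested, with 4 higher, 9 lower and a median log2 fold change of -1.0. That median was -1.46 without the LGR5-high library of pig 95R, -1.53 without the LGR5-negative one, and -0.28 over the 8 that reached 10 counts in each library. CCL28, which shares the receptor CCR10 with CCL27, had 226 and 189 counts in LGR5-high and 1987 and 2525 in LGR5-negative libraries and was lower, as CCL27 was (log2 fold change -3.64, SE 0.15, adjusted p = 6.65e-05, edgeR). CCL21, a lymphatic and T zone chemokine, had 8 and 9 counts against 79 and 133 (-3.81). CCL22 (8 and 3 against 21 and 75 counts, -3.28) and CCL4 (5 and 1 against 17 and 21, -2.81) were lower as well. CCL11, eotaxin, had 306 and 240 counts in LGR5-high and 4 and 6 in LGR5-negative libraries (log2 fold change 5.54, SE 0.32, adjusted p = 0.000166, edgeR), and CCL26, which shares the eotaxin receptor, had 31 and 37 against 1 and 5 (3.26). CCL5 (2.29) and CXCL16 (1.45) were the other higher ones. CXCL16 had 31 and 30.6 CPM in LGR5-high and 11.3 and 11.2 CPM in LGR5-negative cells, very even within each population. CCL3L1 had 0 and 0 counts in LGR5-high and 3 and 5 in LGR5-negative libraries, CCL8 4 and 0 against 1 and 0, and CCL14, CCL16, CCL17, CXCL13 and XCL1 no more than 3 in any library. Of the 13 calls, 6 were kept with each library left out, and without the LGR5-high library of pig 95R alone 2 were higher and 4 lower. There CCL4 (adjusted p = 0.103), CCL5 (0.0996), CCL22 (0.106) and CCL26 (0.0611) were not called, and CCL4 and CCL22 were also lost without the LGR5-negative library of that pig (0.0602 and 0.0657), CCL22 also without the LGR5-high library of pig 88R (0.0534). Without the LGR5-negative library of pig 95R, 5 were higher and 5 lower. The log2 fold changes of these scarce genes moved as well with a library left out, for CCL26 from 2.58 to 4.69, for CCL22 from -4.10 to -2.16, for CCL4 from -4.25 to -2.12 and for CCL5 up to 3.14.

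Of 35 other cytokines, 33 were analysed and 24 tested, with 7 higher, 9 lower and a median log2 fold change of -0.33 (-0.51 to -0.03 with a library left out). LTB, the lymphotoxin gene next to TNF, had 99 and 143 counts in LGR5-high and 6 and 4 in LGR5-negative libraries (log2 fold change 4.37, SE 0.44, adjusted p = 8.51e-04, edgeR). CLCF1, an IL6 family ligand (2.44), TNFSF15 (2.23) and IFNE, an interferon of epithelia (2.23), were also higher. IL20, a keratinocyte cytokine of the IL10 family, was lower with 26 and 24 counts against 157 and 172 (log2 fold change -2.91, SE 0.25, adjusted p = 5.03e-04, edgeR). TNFSF10, which encodes TRAIL (-2.40), IL6 (-2.28) and KITLG, the ligand that melanocytes and mast cells need (-1.78), were lower as well. TNFSF15 was not called without either library of pig 88R or without the LGR5-high one of pig 95R (adjusted p = 0.0609 to 0.143), its log2 fold change ranging from 1.45 to 4.20, and IL6, at no more than 23 counts per library, kept no call with a library left out (the adjusted p, edgeR, reached 0.116). Of the 16 calls, 9 were kept with each library left out, with 5 higher and 5 lower without the LGR5-high library of pig 88R and 4 and 6 without that of pig 95R. IL24 had 4 and 5 counts in LGR5-high and 0 and 0 in LGR5-negative libraries, and IL12B 5 and 1 against 0 and 0. IL23A had 5 and 4 against 1 and 1, and IL12A, IL19, IL22, CSF2 and TNFSF14 no more than 2 counts in any library.

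The place of these genes in the genome was the last feature compared, using the order of genes in Sscrofa11.1. Taking 4 genes on either side of each of the 9 genes gave 72 neighbours, of which 42 were tested, 7 were higher and 8 lower in LGR5-high cells. Over all tested genes 22.7% were higher and 22.0% lower, so calls were not more frequent among these neighbours. Next to TNF, 6 were tested, and LTB (4.37), LST1 (2.92) and AIF1 (2.15) were higher and none lower, all 3 with each library left out. LST1 had 39 and 41 counts against 5 and 4. Both LST1 and AIF1 are known from myeloid cells. AIF1 is among the 14 tested Langerhans and myeloid markers, of which it was called higher and 11 were lower. Which cells gave the LST1 and AIF1 counts was not tested. Next to CCL27, none was higher, and those lower included CCL21 (-3.81), CCL19 (-1.96) and GALT (-1.59). CCL19, another chemokine of that cluster, lost its call with any library left out (adjusted p = 0.055 to 0.166, edgeR). Around CXCL14 only 2 of 8 neighbours were tested and around CXCL12 3 of 8, and none was called. SLC25A48, next to CXCL14, missed the threshold narrowly (log2 fold change 2.06, adjusted p = 0.0549, edgeR). It had 216 and 233 counts in LGR5-high and 78 and 14 in LGR5-negative libraries.

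**Figure D5:**
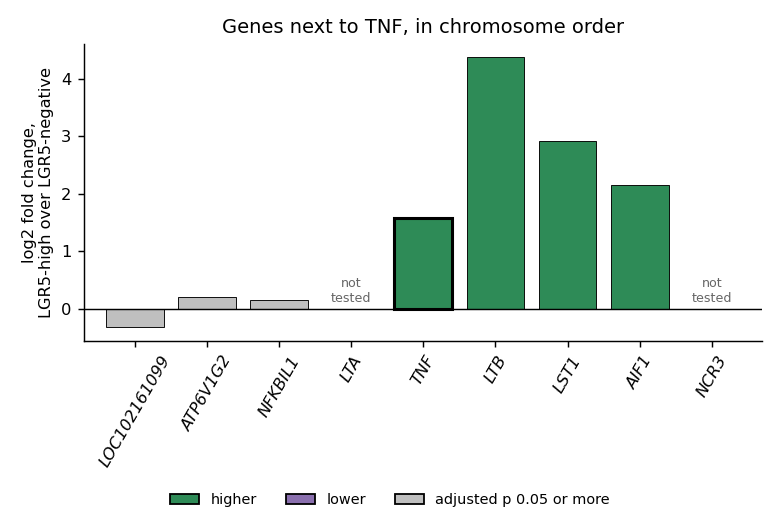
Log2 fold change, LGR5-high over LGR5-negative, of TNF (thick outline) and of the 4 genes on either side in chromosome order, coloured by edgeR call. The 3 bars to the right of TNF (LTB, LST1 and AIF1) point up with it, and the tested genes to its left were not called.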

How the data were processed

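The authors deposited raw counts of reads per gene, not normalized, in a single table of the 4 libraries. Libraries were made with poly(A) selection, and the submitters' processing notes name Trimmomatic 0.36, STAR 2.5.2b and featureCounts (Subread 1.5.2); the genome build and strand setting are not given in the sources used here. An entry with no gene name, 0.36% to 0.626% of counts, was left out. Gene names were looked up in a RefSeq table of Sscrofa11.1, which also gave gene order, overlaps between genes and gene types; none of its coordinates are printed. Both populations entered a fit in edgeR 4.0.16 under R 4.3.3 (filterByExpr at 10 counts and a total of 15, TMM scaling, quasi-likelihood test, 2-sided, population as the only term), with Benjamini-Hochberg adjustment over all tested genes, and genes under an adjusted p of 0.05 were called. Fitted fold changes used a prior count of 0.125, and those within a pig a prior count of 2. Folds of counts within a pig have exact 95% intervals that cover counting error only. The members and gene lists were chosen with earlier results of these data known. Every member was named; of each list the called genes with the 4 largest and the 4 smallest log2 fold changes, and genes at or under 3 counts in both libraries of a population, were named, and every receptor; other genes named were chosen after their values were seen. Each pig gave a library of each population. Deviations from the population means correlated between the libraries of a pig (r = 0.422 across genes, which are not independent). Replicates differed beyond counting noise (chi-square per degree of freedom of 20.3 and 23.1). The alternatives were DESeq2 1.42.0 size factors, upper quartile scaling and library size only, other filters, the pig as a replicate block, DESeq2, limma-voom (limma 3.58.1), Student's test (the test the study names, applied here to log2(CPM + 1), a scale chosen here), a prior count of 2 and each library left out in turn. Scripts were tested on simulated counts first. Plots were drawn with matplotlib 3.10.9 in Python 3.11.15.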

Additional observations from a re-analysis of the deposited data

How the results depend on the processing

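Of the 6 called genes of the set, all kept their direction under every alternative run, and CCL27, CCL20, CXCL14, CXCL12 and IL34 were called in all but Student's test on log2(CPM + 1), which called 0 members higher and 0 lower against 2 and 4 at an unadjusted p under 0.05 (544 and 502 of all genes; adjusted p from 0.0501 for CCL27 to 0.222 for TNF). In simulated counts with 200 planted changes among 15870 tested genes and no difference between pigs, Student's test recovered 0 of them and edgeR 200. The planted share was far below the share called in these data, and the adjustment depends on that share. The simulation therefore cannot say what a missing call by Student's test means here. TNF also lost its edgeR call without the LGR5-negative library of pig 88R and without the LGR5-high library of pig 95R. With a library left out 2 to 3 members were thus higher and 3 lower. The pig as a replicate block called 5 members lower, adding IL1A and TSLP, and changed no other call of a member. Over all tested genes the block raised the edgeR calls from 3632 higher and 3508 lower to 4562 and 4342. In DESeq2 with the same block IL1A and TSLP were not called (adjusted p = 0.276 and 0.306). Among genes of the signalling lists, markers aside, the block in edgeR added BIRC3, ICAM1, SIGIRR and LIF as lower and CCL2 as higher. IL18 reversed to -0.25 without the LGR5-negative library of pig 88R and was at 1.13 without that of pig 95R. TSLP was not tested when at least 10 counts in every library were asked for. Over all genes, 2279 to 3169 were higher and 2139 to 3004 lower with a library left out, the fewest without the LGR5-high library of pig 95R. The median over all genes was 0.24 (log2) when libraries were scaled by size alone, and 0.11 under the upper quartile, against 0.02. The counts were then 5473 higher and 2326 lower with library size only, or 70.2% of calls higher against 50.9%; every member call was the same. With at least 10 counts asked of every library fewer list genes were tested, and 1 of the other chemokines was higher and 4 lower (4 and 9 before), 3 other cytokines higher (7), 2 processing genes lower (4), 2 fibroblast (4), 2 endothelial (5), 6 Langerhans and myeloid (11) and 0 mast cell markers (2) lower. Student's test called 2 receptors higher and 4 lower, 2 and 2 other chemokines, 0 and 2 other cytokines, 1 and 1 processing genes, 0 and 1 IL1 family genes and 0 and 0 NF-kB genes (1 and 9 at an unadjusted p under 0.05). No cause of these differences was tested. Counts were few for TSLP (8 to 32 per library) and for the receptors CCR6, IL7R, CRLF2 and IL18RAP, where 3 counts in a library correspond to at least 0.0873 CPM.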

Other observations

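KRT15, a keratin of the follicle bulge, had 38359 and 77482 counts in LGR5-high libraries and 20376 and 40007 in LGR5-negative libraries (pig 88R first). Both libraries of pig 95R were above those of pig 88R, and the populations overlapped in CPM, so the gene was not called without a term for the pig (log2 fold change 0.76, adjusted p = 0.187, edgeR). With the pig as a replicate block it was called higher (adjusted p = 2.13e-06). CCL2, a monocyte chemokine, had the same arrangement, with 48.3 and 83.7 CPM in LGR5-high cells and 29.0 and 55.7 CPM in LGR5-negative cells. Its adjusted p values were 0.209 without the block and 2.53e-05 with it (edgeR). The block leaves few degrees of freedom per gene. The blocked p-values of KRT15 and CCL2 therefore rest mostly on the spread of all tested genes.

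Among the myeloid genes, LYZ, lysozyme, differed most between pigs. It had 243 and 45 counts in LGR5-high libraries and 2091 and 256 in LGR5-negative libraries (pig 88R first), with the higher value in pig 88R in both populations. PLET1, an epithelial surface gene that lies near IL18 in the genome, had 1070 and 1111 counts in LGR5-high and 207 and 168 in LGR5-negative libraries (log2 fold change 2.34, adjusted p = 0.000285, edgeR), while IL18 itself showed no common direction.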
